A study of Mus musculus with 8 samples.

Results

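The desmosome genes described here are *Dsg1a*, *Dsg1b*, *Dsg2*, *Dsg3*, *Dsc1*, *Dsc2*, *Dsc3*, *Pkp1*, *Jup* and *Dsp*, 10 of the 36799 genes and other targets on the array. They were found through the RefSeq accession that the array gives for each probe, which led to 14 probes, with a second probe for *Dsg2*, *Dsg3*, *Dsc3* and *Dsp*. Their RNA was measured in P0 (newborn) back skin epidermis of 4 EED cKO (K14-Cre; EED flox/flox) and 4 control mice of the C57BL/6 strain, where the labels call the control only by that name and the study's legends describe Cre-negative siblings for a related experiment. The Krt14 promoter that drives Cre is active in the keratinocytes of the embryonic and newborn epidermis and not in the dermis. In both groups the epidermis was lifted off with dispase and dissociated with trypsin, with different times in the labels and in the methods. Each RNA was hybridized with Universal Mouse Reference RNA in the other dye, the sample in Cy3 on replicates 1 and 3 and in Cy5 on replicates 2 and 4 of both genotypes. A value below is a log2 ratio of sample over reference, unless it is named otherwise.

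Desmosomes are the spot-like junctions that tie keratinocytes to each other and give the epidermis its mechanical strength. Desmogleins (Dsg) and desmocollins (Dsc) are transmembrane cadherins that bind across the gap between neighbouring cells, plakoglobin (Jup) and plakophilin (Pkp1) are armadillo proteins that gather their tails on the inner face, and desmoplakin (Dsp) links this plaque to keratin filaments. In skin, Dsg1 and Dsc1 are known from the upper living layers, Dsg3 and Dsc3 from the lower layers, and Dsg2 and Dsc2 are also made by simple epithelia. Eed is a subunit of Polycomb repressive complex 2, which marks silent genes with H3K27me3.

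*Eed* itself did not overlap between the genotypes, with log2 ratios of -1.80 ± 0.17 (SD, n = 4) for the EED cKO arrays and -0.35 ± 0.13 (SD, n = 4) in control epidermis and a log2 fold change of -1.46 (SE, the standard error of the fit, 0.09, limma adjusted p = 2.11e-05). Between 51.5% and 65.5% of spots per array had a sample signal well above background and none was saturated. All 8 arrays lay on 1 slide, with 1 row per genotype, so that slide row and genotype cannot be told apart. Y-linked RNA, a mark of male samples, was high in control replicates 2 and 3 only. Its mean log2 ratios were 1.19 and 1.02 there and between -1.40 and -1.31 on the EED cKO arrays. Sex was thus not balanced between the genotypes and is partly confounded with genotype in every comparison below. Of the keratinocyte markers, *Krt5* had mean log2 ratios of 3.25 and 3.19 in EED cKO and control and *Lor* 5.51 and 5.41. *Tgm3*, also a keratinocyte marker, stood near the reference at 0.13 and 0.13. The dermal collagen *Col1a1* stood at -6.10 and -6.06, but the dermal fibroblast marker *Dcn* at 1.62 and 1.82. The markers of a cell type thus did not all go one way against the reference, and these ratios do not measure purity. With 4 arrays per genotype, their number limits the precision.

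None of the 10 desmosome genes passed the test between EED cKO and control epidermis. At a limma adjusted p below 0.05, 0 of 10 were lower and 0 of 10 were higher in EED cKO, whereas 9.89% of all tested genes and other targets were lower and 11.8% higher, 21.6% in either direction. With the Feature Extraction log ratio 0 of 10 were lower and 0 of 10 higher, against 8.86% and 8.25% of all tested. The methods' t-test, after the same adjustment, also called 0 of 10, but it called few targets at all, 1.36% lower and 2.54% higher. At the threshold of the methods, an unadjusted p below 0.05 and a 2-fold change, it called 0 of 10 against 1.18% of all tested. Before adjustment limma gave a p below 0.05 for 1 of 10 lower, *Jup*, and 1 of 10 higher, *Dsc2*, against 16.3% and 19.5% of all tested. At least a 2-fold change with the same adjusted p was reached by 0 of 10, against 1.2% of all tested. The EED cKO and control arrays overlapped for each of the 10, whereas 7.48% of all tested were lower without overlap and 9.64% higher without overlap. Of the 10 log2 fold changes, 7 were negative, with a median of -0.08 against 0.02 over all tested. The 95% confidence interval lay inside a 2-fold change for 9 of them, all but *Dsc2*. Since the RNA came from whole epidermis, fewer cells of a type and less RNA per cell cannot be told apart. At all 14 probes the epidermal RNA was well above background on the 4 arrays of both genotypes, except at 1 probe of *Dsg2* on 1 control array.

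**Figure D1:**
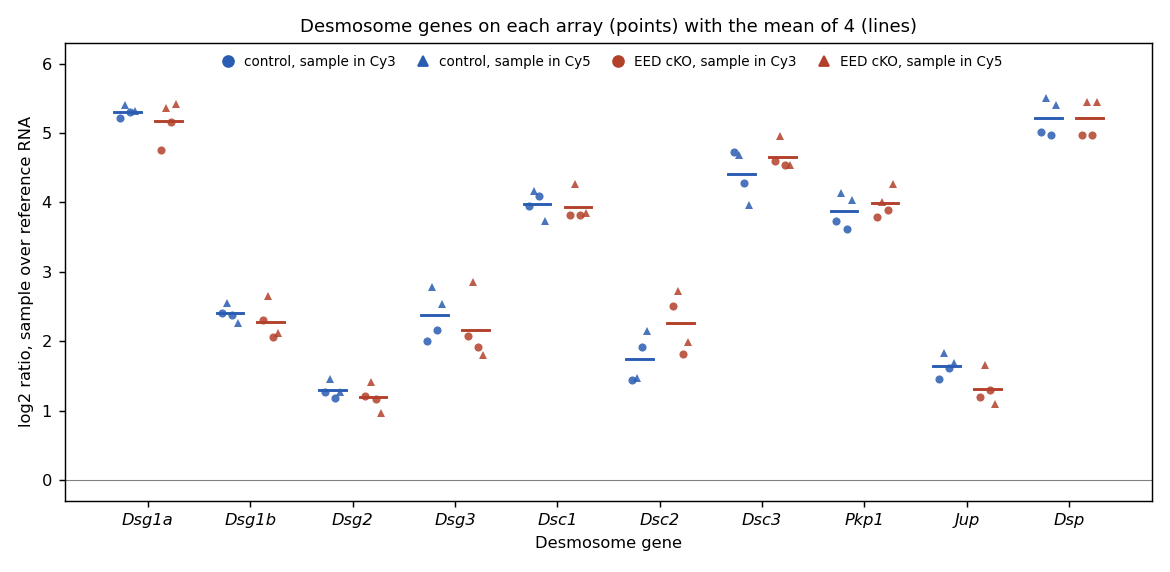
Log2 ratio of sample over reference RNA (vertical axis) for each of the 10 desmosome genes on the 4 control (blue) and 4 EED cKO (red) arrays, with the sample in Cy3 (circles) or Cy5 (triangles) and lines at the mean of each genotype. The points of both genotypes overlap for every gene, and the Cy5 points of Dsp lie above its Cy3 points in both.

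Of the desmogleins, *Dsg1a*, one of the mouse copies of the desmoglein of the upper layers, had log2 ratios of 4.76, 5.35, 5.16 and 5.42 on EED cKO replicates 1 to 4 and of 5.21, 5.40, 5.30 and 5.32 on the control replicates. EED cKO replicate 1 was the lowest array, and the other 7 lay within the same narrow span. The log2 fold change was -0.13 (SE 0.10, 95% confidence interval -0.37 to 0.10, limma adjusted p = 0.395), but it was 0.46 with the Feature Extraction log ratio and 0.035 without background correction, and without EED cKO replicate 1 it was -0.023. Its neighbour and close copy *Dsg1b* had 2.30, 2.64, 2.05 and 2.12 in EED cKO and 2.41, 2.55, 2.38 and 2.26 in control epidermis, so that EED cKO held both the highest and the 2 lowest arrays. For *Dsg1b* the log2 fold change was -0.12 (SE 0.13, limma adjusted p = 0.544). The signal of a probe cannot be assigned with certainty between such near-identical copies, so the values of *Dsg1a* and *Dsg1b* may hold RNA of one another.

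*Dsg3*, the desmoglein of the lower layers and the antigen of pemphigus vulgaris, varied more from array to array. It had 2.07, 2.85, 1.91 and 1.80 in EED cKO and 2.00, 2.78, 2.16 and 2.53 in control epidermis. Replicate 2 was the highest in both genotypes. The log2 fold change was -0.21 (SE 0.19, 95% confidence interval -0.64 to 0.22, limma adjusted p = 0.471), with -0.16 from its other probe, and it was 0.022 without EED cKO replicate 4. The reference RNA was well above background on none of the 8 arrays at the *Dsg3* probe used, so the ratio there has only a bound on the reference side. *Dsg2*, the desmoglein that simple epithelia also make, had 1.21, 1.41, 1.16 and 0.97 in EED cKO and 1.27, 1.45, 1.17 and 1.26 in control. These values lay close together, apart from the low EED cKO replicate 4. Its log2 fold change was -0.10 (SE 0.10, limma adjusted p = 0.520), its dimmer probe gave 0.06, and without EED cKO replicate 4 the value was -0.00046.

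The desmocollins included the member that stood furthest from 0, *Dsc2*, with log2 ratios of 2.51, 2.73, 1.81 and 1.98 in EED cKO and of 1.44, 1.47, 1.91 and 2.15 in control epidermis. EED cKO replicates 1 and 2 lay above all control arrays, and EED cKO replicates 3 and 4 lay among them. The means were 2.26 ± 0.43 (SD, n = 4) and 1.74 ± 0.35 (SD, n = 4), and the log2 fold change was 0.52, or 1.43-fold (SE 0.22, 95% confidence interval 0.02 to 1.01). It did not pass the adjustment (limma adjusted p = 0.125), nor did it in any of the alternatives run, where it ranged from 0.36 to 0.73 and the adjusted p from 0.0665 to 0.325. Of all tested genes and other targets, 7.66% had a larger absolute change. The reference was well above background at this probe on 2 of the 8 arrays.

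*Dsc1*, the desmocollin of the upper layers, had 3.82, 4.26, 3.81 and 3.84 in EED cKO and 3.94, 4.17, 4.10 and 3.72 in control. EED cKO replicate 2 stood apart from the other 3 EED cKO arrays. The log2 fold change was -0.05 (SE 0.13, 95% confidence interval -0.34 to 0.24, limma adjusted p = 0.825), and its sign turned in 7 alternatives. For *Dsc3*, which the lower layers make, the EED cKO arrays had 4.60, 4.95, 4.54 and 4.54 and the control arrays 4.72, 4.68, 4.28 and 3.96. Control replicates 3 and 4 were the lowest. This gave a log2 fold change of 0.24 (SE 0.17, 95% confidence interval -0.15 to 0.64, limma adjusted p = 0.353), which was 0.063 without control replicate 4, 0.13 without EED cKO replicate 2 and 0.37 without control replicate 1. The dimmer probe of *Dsc3* went the other way, at -0.25 (SE 0.11), so the direction for this gene is not settled between its 2 probes.

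**Figure D2:**
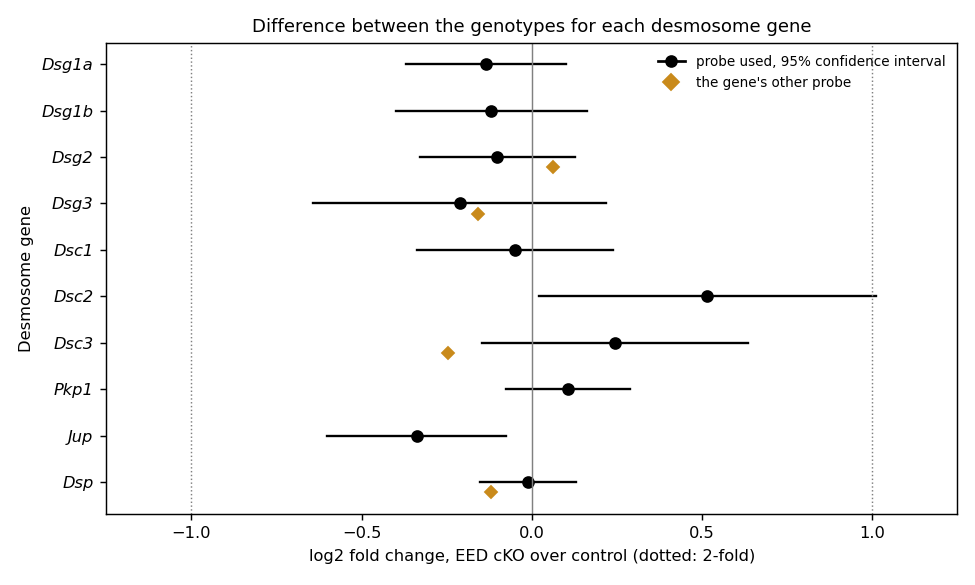
Log2 fold change of EED cKO over control (horizontal axis, dotted lines at 2-fold) for each desmosome gene, with the 95% confidence interval of the probe used (black) and, where there is one, the gene's other probe (orange). The intervals of 8 genes include 0, those of Dsc2 and Jup do not, and the 2 probes of Dsc3 and of Dsg2 lie on opposite sides of 0.

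Among the plaque proteins, plakoglobin came nearest to passing. *Jup*, the armadillo protein that desmosomes share with adherens junctions, had 1.20, 1.66, 1.29 and 1.09 in EED cKO and 1.46, 1.83, 1.62 and 1.68 in control epidermis. Of the EED cKO arrays, 3 lay below all control arrays, and EED cKO replicate 2 lay among them. The log2 fold change was -0.34, or 1.26-fold lower (SE 0.12, 95% confidence interval -0.60 to -0.07, limma adjusted p = 0.0680). With the replicate number as a block, which pairs each EED cKO array with the control array of its number, *Jup* passed (limma adjusted p = 0.0223), as 1 of 10 members against 11.7% of all tested that were lower in that fit. Without EED cKO replicate 2 it was -0.44 (limma adjusted p = 0.0223), again as 1 of 10 members against 8.21% of all tested. Without EED cKO replicate 4 it was -0.21 (limma adjusted p = 0.146). *Jup* was lower than the control array of the same number in all 4 pairs. Its direction was the same in all 26 alternatives, with values between -0.54 and -0.21. Several of these, such as the replicate block and the methods' t-test, leave the fold change unchanged and could not turn it.

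*Pkp1*, the plakophilin of the suprabasal epidermis, whose loss in people causes skin fragility, had 3.78, 4.01, 3.89 and 4.27 in EED cKO and 3.74, 4.14, 3.62 and 4.03 in control. Its arrays were mixed between the genotypes. The log2 fold change was 0.11 (SE 0.08, 95% confidence interval -0.08 to 0.29, limma adjusted p = 0.387), and -0.09 with median centring. *Dsp*, the plakin that anchors keratins, was measured on the most spots. Its probe is printed as 10 spots, and the SD over the 7 to 10 spots used per array was 0.04 to 0.09. That is the spread within an array and not the precision of the difference between genotypes. *Dsp* had 4.97, 5.45, 4.97 and 5.45 in EED cKO and 5.01, 5.50, 4.97 and 5.41 in control. The arrays with the sample in Cy5 were higher than those with it in Cy3 by a like amount in both genotypes, and the dye term of the fit takes that out. The log2 fold change of *Dsp* was -0.01 (SE 0.06, 95% confidence interval -0.15 to 0.13, limma adjusted p = 0.918), and 95.2% of all tested had a larger absolute change. Its other, single-spot probe gave -0.12. At the probe used, the value was 0.16 with the Feature Extraction log ratio and -0.27 with median centring, and neither passed (limma adjusted p = 0.197 and 0.172).

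Both channels were then compared one at a time at the same spots, since a ratio hides a difference that they share. For *Dsp* the log2 normalized signal of the epidermal RNA was 13.54, 13.80, 13.14 and 13.39 on the EED cKO arrays and 14.09, 14.67, 14.19 and 14.37 on the control arrays, so that every EED cKO array was dimmer than any control array. The difference in this sample channel was -0.86, or 1.82-fold (SE 0.13, limma adjusted p = 0.00316). The reference RNA, which was the same on every array, was dimmer there too, at 8.57, 8.35, 8.17 and 7.94 against 9.08, 9.17, 9.23 and 8.96, a difference of -0.85 (SE 0.10, limma adjusted p = 0.00535). *Dsp* was thus dimmer on the EED cKO arrays by a like amount in the epidermal RNA and in the common reference RNA.

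*Pkp1* was dimmer in both channels as well. Its sample signal was 14.61, 14.94, 14.74 and 14.61 in EED cKO and 15.49, 15.69, 15.56 and 15.40 in control, a difference of -0.81 (SE 0.10, limma adjusted p = 0.00152). Its reference signal was 10.83, 10.93, 10.86 and 10.34 against 11.75, 11.55, 11.94 and 11.37, a difference of -0.91 (SE 0.11, limma adjusted p = 0.00479). Neither channel overlapped between the genotypes. For *Dsg1a* the sample signal differed by -0.68 (SE 0.10, limma adjusted p = 0.00371) and the reference signal by -0.55 (SE 0.09, limma adjusted p = 0.0223), also with no overlap. The reference call of *Dsg1a* was lost without any one of 5 arrays, EED cKO replicates 2 and 4 and control replicates 1, 2 and 3, with an adjusted p of up to 0.0939, while those of *Dsp* and *Pkp1* held with each array left out in turn (limma adjusted p up to 0.0304 and 0.0301). Within the Cy3 and the Cy5 arrays taken apart, the reference differences were -0.78 and -0.92 for *Dsp*, -1.001 and -0.82 for *Pkp1* and -0.52 and -0.58 for *Dsg1a*. In the reference signal as processed by the scanner software they were -0.99, -0.90 and -1.09, which did not pass (limma adjusted p = 0.108, 0.112 and 0.170).

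Of the 4 genes that were lower in the sample channel, plakoglobin was the 1 whose reference signal did not pass. The sample signal of *Jup* was 7.15, 7.57, 7.22 and 7.12 in EED cKO and 7.53, 7.92, 7.62 and 7.73 in control, a difference of -0.44 (SE 0.10, limma adjusted p = 0.0207, and 0.0756 without control replicate 2). Its reference signal differed by -0.10 (SE 0.04, limma adjusted p = 0.547). That signal was dim, between 5.91 and 6.09 on the 8 arrays, so a drop may not show there. In the processed reference signal *Jup* differed by -0.32, which did not pass (limma adjusted p = 0.515). In that signal *Dsp*, *Pkp1* and *Dsg1a* did not pass either, so it does not set *Jup* apart from them. The remaining 6 genes did not pass in either channel, with sample differences between -0.19 for *Dsg3* and 0.47 for *Dsc2* and reference differences between -0.05 and 0.10. In all, 4 of 10 desmosome genes were lower in the sample channel against 8.93% of all tested, 0 of 10 were higher there against 9.03%, and 3 of 10 were lower in the reference channel against 0.224% of all tested. By non-overlap the same 3 genes stood against 8.81% of all tested in the sample channel and 2.13% in the reference channel.

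Most targets that were lower in the reference channel had far more signal from the sample than from the reference. So did these 3 genes, whose mean log2 ratios over the 8 arrays were 5.24 (*Dsg1a*), 5.22 (*Dsp*) and 3.93 (*Pkp1*). Of 52 targets lower in the reference channel, 31 were among the 847 with a mean log2 ratio above 2, and 30 of those 31 were lower in the sample channel as well. Above a mean log2 ratio of 3.5 there were 319 targets, with 19 lower and 31 higher in the reference channel, whereas at or below -2 there were 757 with 0 lower and 0 higher. *Dsc3* and *Dsc1*, with mean log2 ratios of 4.53 and 3.96, had reference differences of 0.10 and -0.02. Their sample differences, 0.35 and -0.07, did not pass either (limma adjusted p = 0.467 and 0.817). The part of the sample's own brightness in the reference signal was not tested, and that of slide row cannot be told apart from genotype.

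**Figure D3:**
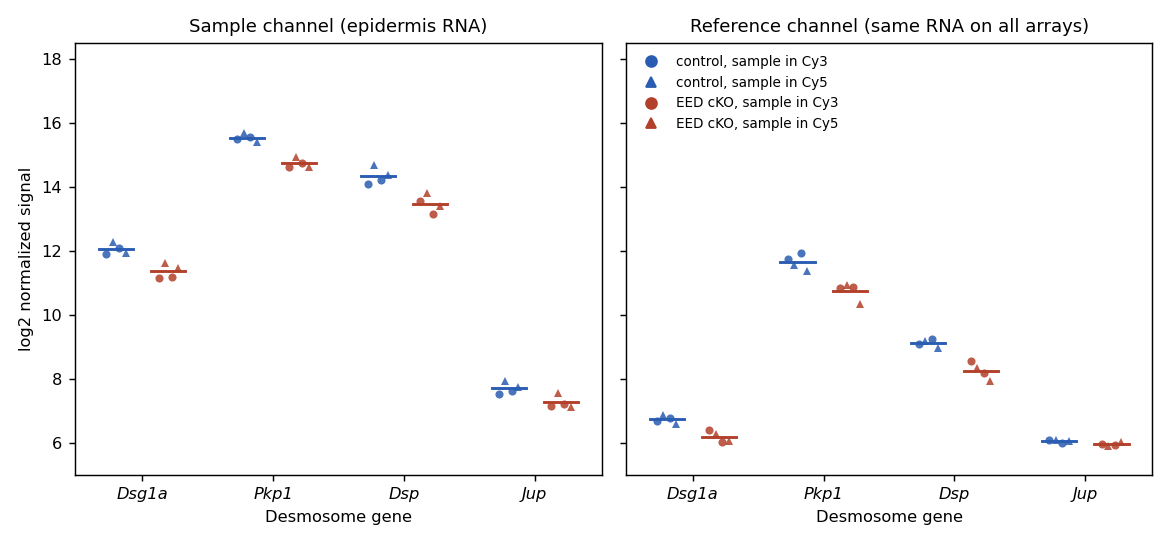
Log2 normalized signal (vertical axis) of the sample channel (left) and of the reference channel (right) for Dsg1a, Pkp1, Dsp and Jup on the control (blue) and EED cKO (red) arrays, with the sample in Cy3 (circles) or Cy5 (triangles) and lines at the mean of 4 arrays. Dsg1a, Pkp1 and Dsp are lower on all EED cKO arrays in both panels. Jup is lower on average in the left panel and nearly level in the right one, where its signal is the dimmest of the 4.

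Pairs of cadherins were also compared within each array, as the difference of their log2 ratios, over 4 pairs in all. *Dsc1* minus *Dsc3*, a desmocollin of the upper layers against one of the lower layers, differed by -0.29 between EED cKO and control, with overlapping arrays (exact permutation test, two-sided, p = 0.143, adjusted over the pairs 0.286), and this holds for the brighter *Dsc3* probe only, since the other one went the opposite way. *Dsg1b* minus *Dsg1a* differed by 0.02 (exact permutation test, two-sided, p = 0.971). Nothing is read from the other 2 pairs, *Dsg1a* minus *Dsg3* and *Dsc1* minus *Dsc2*, because the reference was above background on 0 and 2 of the 8 arrays at the *Dsg3* and *Dsc2* probes.

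The desmosome genes shared part of their variation from array to array. In EED cKO, 8 of the 10 genes were highest on replicate 2, and in control epidermis 8 of 10 were highest on replicate 2 as well. Averaged over the 10 genes after centring each on its mean, replicate 2 stood at 0.31 in EED cKO and 0.18 in control, and the other 6 arrays between -0.16 and 0.01. All Cy5 arrays exceeded all Cy3 arrays for 3 of the 10 genes. Replicate 4, whose sample was also in Cy5, stood at -0.07 in EED cKO and 0.01 in control, so the height of replicate 2 was not shared by the arrays of its dye. Replicate number and slide column cannot be told apart.

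Other genes of the junction and of its surroundings were taken from lists chosen with earlier results of these data known. Over all tested genes and other targets 9.89% were lower and 11.8% higher, the shares to set beside each count of a list here and below. With the methods' t-test these shares were 1.36% and 2.54%, and in the sample channel alone 8.93% and 9.03%. Of 10 tested other desmosome and desmosome-linked genes, 2 were lower, 1 was higher and 7 did not pass, with a median log2 fold change of -0.15, while 4 were lower with quantile normalization and 0 with the methods' t-test. *Pkp2*, the plakophilin of simple epithelia and heart, rose by 1.21 on the log2 scale, or 2.32-fold (SE 0.12, limma adjusted p = 0.000277), without overlap of the genotypes and with a ratio far below the reference in both, at -2.77 and -3.98. *Pkp4*, which is found in both adherens junctions and desmosomes, was at -0.48 (limma adjusted p = 0.00891), and *Kazn*, which encodes kazrin, a protein that binds the desmosomal plakin periplakin, at -0.52 (limma adjusted p = 0.0362). The call of *Kazn* was lost in 14 of 26 alternatives, among them those without EED cKO replicates 1, 3 or 4 or control replicates 2 or 3, while its other probe gave -0.47. *Dsg1c*, the remaining mouse copy of desmoglein 1, was at -0.18 and *Pkp3*, the plakophilin of all epidermal layers, at -0.20, and neither passed (limma adjusted p = 0.336 and 0.189).

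Of 11 tested keratins that attach to desmosomes, 5 were higher and 0 lower, with a median of 0.17, while 3 were higher with the Feature Extraction log ratio, the methods' t-test, quantile normalization, no dye term or Y-linked RNA as a covariate, and 2 were lower in the sample channel alone. *Krt6b* (log2 fold change 3.39) and *Krt6a* (2.73), keratins of hair follicle and injured skin, *Krt2* (1.00), a keratin of the upper layers, and *Krt16* (0.50), the usual partner of Krt6, had limma adjusted p-values of 1.59e-06, 2.46e-06, 0.00102 and 0.0135. The other probes of *Krt6b* and *Krt2* gave 0.73 and 3.28, so the sizes of these are not settled, and the call of *Krt6a* was lost with the Feature Extraction log ratio, which the deposited table also holds. The call of *Krt16* was lost in 6 of 26 alternatives, among them that ratio. *Krt5* at 0.06 and *Krt14* at 0.11, the basal pair, did not pass (limma adjusted p = 0.622 and 0.358). Of 16 tested proteases that shed desmosomes and their inhibitors, 6 were higher and 1 lower, with a median of 0.24, and the number higher was 1 with the methods' t-test, 2 with the Feature Extraction log ratio or median centring and 7 without control replicate 3 or with Y-linked RNA as a covariate. The 4 largest were those of the kallikrein *Klk6* (0.87), the protease inhibitors *Cst6* (0.69) and *Spink5* (0.58) and the lysosomal protease *Ctsl* (0.52), with limma adjusted p-values of 0.00965, 0.0115, 0.0262 and 0.00328, so that both proteases and inhibitors were among them. The call of *Spink5* was lost in 13 of 26 alternatives, among them those without any one EED cKO array or without control replicates 2 or 4. That of *Klk6* was lost in 4, among them the Feature Extraction log ratio. The 1 lower gene, named after its value was seen, was *Adam10* (-0.37, limma adjusted p = 0.0173), a protease that cuts cadherins at the cell surface, and its call was lost without EED cKO replicate 4 or control replicate 2. *Klk5* (0.28) and *Klk10* (-0.12) did not pass (limma adjusted p = 0.0597 and 0.279).

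Adherens junction genes were lower more often than the desmosome genes in these counts, a difference that was not tested. Of 12 tested, 5 were lower and 0 higher, with a median of -0.41, while 7 were lower with the replicate block, in the sample channel alone or without EED cKO replicate 2, 3 with median centring, 1 without the dye term and 0 with the methods' t-test. *Cdh3* (P-cadherin) was at -0.90, *Ctnnd1* (p120 catenin) at -0.68, *Ctnna1* (alpha-catenin) at -0.61 and *Ctnnb1* (beta-catenin) at -0.52, with limma adjusted p-values of 0.00525, 0.00208, 0.0143 and 0.0106. The call of *Cdh3* was lost in 4 of 26 alternatives, among them the Feature Extraction log ratio. That of *Ctnna1* was lost in 4, among them median centring and Y-linked RNA as a covariate, that of *Ctnnb1* in 3 and that of *Ctnnd1* in 1. *Ajuba*, the last of the 5 and named after its value was seen, was at -0.51. *Cdh1* (E-cadherin) at -0.06 and *Nectin1* at -0.38 did not pass (limma adjusted p = 0.664 and 0.0597). Of 14 tested transcription factors of stratified epithelium, 3 were lower and 0 higher, with a median of -0.23, while 7 were lower and 1 higher in the sample channel, 6 lower with quantile normalization, 1 lower and 1 higher with Y-linked RNA as a covariate, and 0 with the methods' t-test. These were *Klf4* (-0.70), *Grhl2* (-0.68) and *Tfap2a* (-0.30), with limma adjusted p-values of 0.00744, 0.0129 and 0.0200, and the call of *Tfap2a* was lost in 10 of 26 alternatives, among them those without EED cKO replicates 1 or 4 or control replicates 2 or 4. *Trp63* (0.04, limma adjusted p = 0.756), the master factor of the lineage, and *Grhl1* (-0.15, limma adjusted p = 0.624), known as a regulator of *Dsg1*, did not pass, but the other probe of *Trp63* gave -0.59 (limma adjusted p = 0.00338). No gene called in these 5 lists turned its direction in any of the 26 alternatives. Several of these leave the fold change unchanged and could not turn it.

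**Figure D4:**
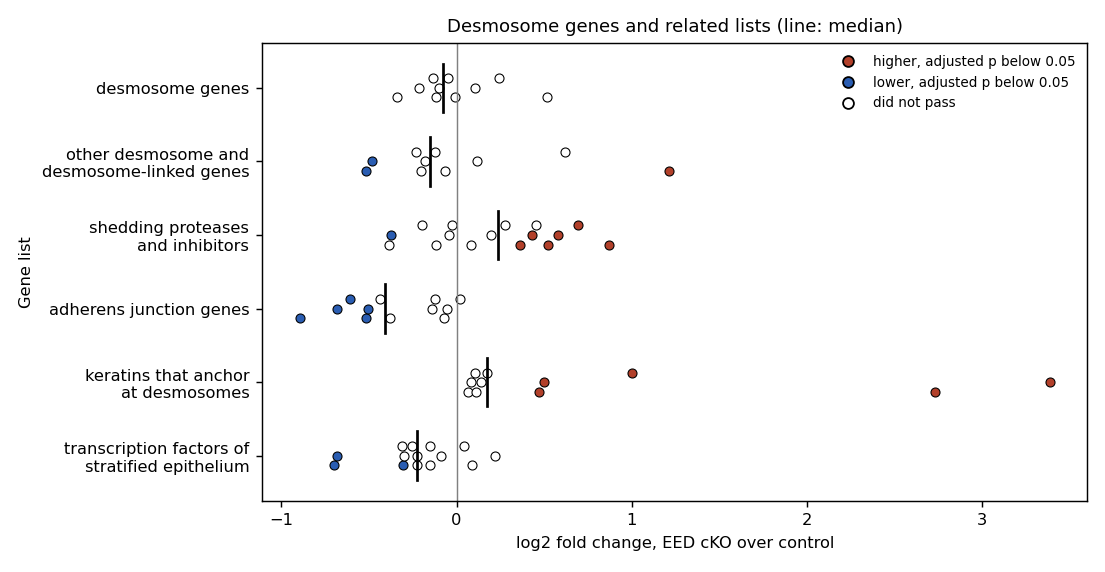
Log2 fold change of EED cKO over control (horizontal axis) of each tested gene of 6 lists (vertical axis), filled red or blue where it was higher or lower at a limma adjusted p below 0.05 and white where it did not pass, with a line at each list's median. All 10 desmosome genes are white, between -0.34 and 0.52, while the other 5 lists each hold filled points. Over all tested genes and other targets, 21.6% passed in either direction.

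Markers of the cell types in the sheet were read beside these values, and beside the 9.89% lower and 11.8% higher of all tested. Several counts of these short lists lie near those shares. Of 8 tested basal keratinocyte markers, 4 were lower and 0 higher (median -0.27), of 6 spinous ones 2 were lower and 2 higher (median 0.13), and of 8 granular ones 0 were lower and 2 higher (median 0.16). The summed sample signal of the basal markers ranged from 219190 to 259913 on the EED cKO arrays and from 263462 to 326120 on the control arrays, and that of the granular markers from 202144 to 208058 and from 104519 to 181350. For the 10 desmosome genes this sum was 42071 to 54177 and 71031 to 88367, most of it from *Pkp1* and *Dsp*, the genes that were dimmer in both channels. All these sums are of the sample channel alone and weigh bright genes most. By ratio the basal keratins *Krt5*, *Krt14* and *Krt15* were at 0.06, 0.11 and 0.17 and did not pass, and each turned negative in the sample channel alone. Nothing is read from the sums about numbers of cells. Merkel cell markers were higher for 6 of 6 tested (median 0.74), endothelial ones for 2 of 3, immune ones for 2 of 6 and dermal fibroblast ones for 1 of 8. Of the Merkel cell markers, *Sox2*, *Isl1* and *Atoh1* entered the test only through the EED cKO arrays. They were well above background on 0, 2 and 2 control arrays, so they lend that count no support. *Piezo2*, also listed, did not pass the filter. Of skeletal muscle markers 0 of 5 passed, of melanocyte markers 1 of 7 was lower, and of hair shaft and inner root sheath markers 1 of 10 was lower and 3 were higher. The part of these cells in the desmosome values was not tested.

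Across 26 alternatives the number of desmosome genes that were higher stayed at 0 and the number at 2-fold stayed at 0, while the number that were lower was 0 in all but 5 of them.

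**Figure D5:**
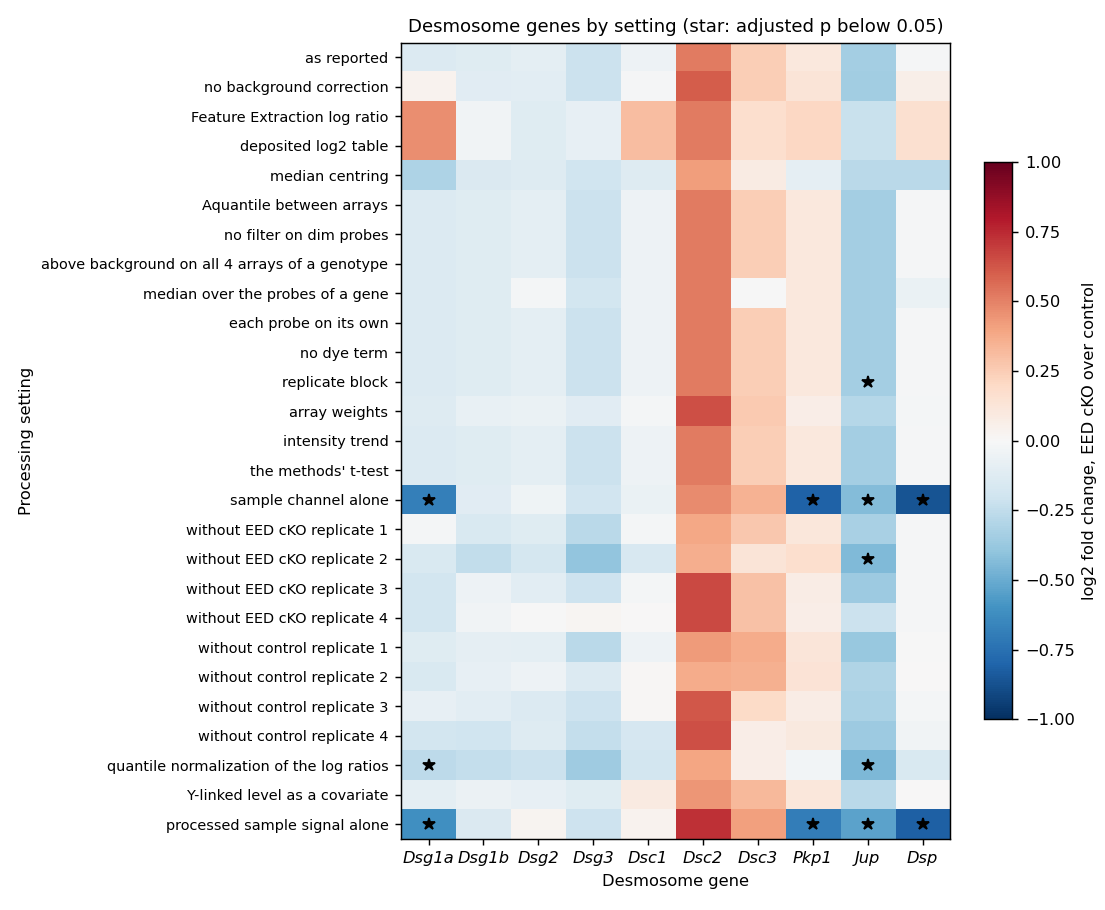
Log2 fold change of EED cKO over control (colour) of the 10 desmosome genes (columns) as reported and under 26 other processing settings (rows), with a star where the limma adjusted p, or that of the methods' t-test in its row, was below 0.05. Stars stand for Jup in 5 rows, for Dsg1a in 3 and for Pkp1 and Dsp in the 2 rows that use the sample channel without the reference.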

How the data were processed

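RNA of 4 EED cKO and 4 control epidermis samples was hybridized on 2-colour Agilent mouse arrays with Universal Mouse Reference RNA. The authors scanned the arrays with Agilent Feature Extraction 12.0.1.1, and the deposited scanner files hold spot intensity in both channels and a log10 ratio of red over green. The deposited value table holds log2 values, which were the processed ratios of sample over reference.

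Median spot intensities were corrected with normexp (offset 50), normalized by loess within each array and turned to sample over reference. Control spots and outlier spots had weight 0. Spots of a probe were averaged. A probe was kept when the sample channel was well above background on 3 or 4 of a genotype's arrays, and the brightest such probe stood for its gene. Genotype and dye were fitted with limma 3.58.1 in R 4.3.3, with Benjamini-Hochberg adjustment over 23233 targets. The methods' t-test had a threshold of p below 0.05 and a 2-fold change and was run on the same values. Channels were fitted in the same way on log2 signals of single channels.

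Replicate numbers come from the labels, which call them biological replicates. The deviations of same-numbered arrays from their group means correlated at 0.49, 0.68, 0.33 and 0.36, and at 0.13 and 0.46 within a dye. Whether the numbers pair the samples is not known. The fit as reported did not pair the arrays, and a pairing by number was fitted only as the replicate block, where *Jup* passed. Each number also marks 1 slide column and 1 dye orientation. Nothing says from which litters the samples came. Names came from RefSeq accessions (28026 of 29796 probes matched). Genes named beside the desmosome genes were, of each list, up to 4 with the largest absolute log2 fold change at an adjusted p below 0.05 and the first 2 others in list order. The desmosome genes and all lists were chosen with earlier results of these data known. Only the fit was tested on simulated data, with fold changes larger than that of any desmosome gene here. Background correction, normalization and probe choice were not tested in this way. Alternatives covered background, normalization, filter, probe choice, dye term, block, single channels and each array left out in turn, and those on quantile normalization, Y-linked RNA and the processed sample signal were added after the data were seen.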

Additional observations from a re-analysis of the deposited data

Results flagged for a closer look

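Of 20 groups of 4 arrays, 1 per desmosome gene and genotype, 2 held an array far from the others. For *Dsc1*, EED cKO replicate 2 had a log2 ratio of 4.26 and the nearest EED cKO array 3.84, a gap of 0.93 of the group's range, which is beyond the 95% critical value of Dixon's test for 4 samples. For *Dsc3*, EED cKO replicate 2 was at 4.95 and the nearest at 4.60, a gap of 0.852 of the range. A test at this level is expected to mark about 1 group in 20 by chance. The same array was the highest EED cKO array for 8 of the 10 genes. Without it, *Jup* was at -0.44 and passed (limma adjusted p = 0.0223).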

How the results depend on the processing

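The number of desmosome genes lower in EED cKO was 0 as reported, 1 with the replicate block (*Jup*), 0 to 1 with one array left out (1 without EED cKO replicate 2, *Jup*), 2 with quantile normalization (*Jup*, and *Dsg1a* at -0.26, limma adjusted p = 0.0456, against 11.6% of all tested), and 4 with the sample channel alone or the processed sample signal alone, the latter against 8.21% of all tested. The replicate block changed no other call among the 10. The median over the 10 turned to 0.16 with the Feature Extraction log ratio and with the deposited table and to 0.012 without background correction, and with one array left out it ranged from -0.16 to 0.0015 (without EED cKO replicate 4). Those ratios and that table also turned *Dsg1a* to 0.46, *Dsc1* to 0.31 and *Dsp* to 0.16, and no background correction turned *Dsg1a* to 0.035 and *Dsp* to 0.057. *Pkp1* turned to -0.086 with median centring, -0.031 with quantile normalization, -0.81 in the sample channel and -0.69 in the processed sample signal, where *Dsg2* turned to 0.028 and *Dsc1* to 0.034. With one array left out *Dsc1* ranged from -0.17 to 0.013 (0.0036, 0.0082 and 0.013 without EED cKO replicate 4, control replicate 2 and control replicate 3), and it turned to 0.091 with Y-linked RNA as a covariate. With one array left out *Dsp* ranged from -0.032 to 0.0062 (without control replicate 2) and *Dsg3* from -0.40 to 0.022 (without EED cKO replicate 4). *Dsp* turned to 0.0025 with that covariate and *Dsc3* to -0.0013 with the median over probes. The cause was not tested. *Dsg1b*, *Dsc2* and *Jup* kept their direction in all 26. Alternatives that change only the error of the fit, such as the replicate block, could not have turned it. The reference was well above background on all 8 arrays for 7 of the 10 genes. It was not for *Dsg3*, *Dsc1* and *Dsc2*, whose ratios are thus less certain on the reference side. This does not rank the certainty of the 10 genes in other respects.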

Other observations

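Over the 8 arrays, the genes whose log2 ratios most resembled the mean centred profile of the 10 desmosome genes were *Tgfbr3l*, *Endou*, *Trp53inp2*, *Mgat5b* and *Usp6nl*, with Pearson correlations of 0.968, 0.953, 0.950, 0.949 and 0.942. The 8 arrays share their dyes, slide and replicate numbers, and the correlations describe them only. None of the 5 passed the test between the genotypes, with limma adjusted p-values between 0.573 and 0.947.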
